A study of Homo sapiens with 11 samples.

Results

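The well expressed long intergenic noncoding RNA (lincRNA) entries of HCC78 cells were 94 of the 7109 entries typed lincRNA in a deposited table of 57773 genes. They were selected on measured values: an average of 5 or more over 9 RNA-Seq libraries in FPKM, the fragments of a transcript scaled to its length and to the library's mapped total, leaving out 4 entries by name, from the list MALAT1, NEAT1, GAS5, ZFAS1 and genes whose names begin with SNHG. Just inside this threshold were Z83851.3 and LINC01001 with means of 5.09 FPKM each, and just outside were RP11-266K4.9 at 4.98 and CTD-2196E14.9 at 4.91. Without the group in which they were highest, 10 members fell under 5 FPKM, so that these owed their place to that group or to a library in it. Without only their highest library, 6 members fell under 5 FPKM.

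HCC78 is a human lung adenocarcinoma line that carries its own U2AF1 S34F allele and a SLC34A2-ROS1 fusion, so every group, the parental one included, expressed S34F from the endogenous gene. The cells were transduced with FLAG- and HA-tagged U2AF1 cDNA, wild-type (WT) or S34F, in a doxycycline-inducible lentiviral vector, stable subclones were then derived, and both cDNAs were thus driven by doxycycline and not by the gene's own promoter. The groups were WT dox+, WT dox-, S34F dox+ and the untransduced parental line with 2 libraries each, and S34F dox- with 1 library, and the sample labels give the parental cells as without doxycycline whereas a supplementary header of the study gives them as with it. The share of S34F in U2AF1 mRNA was given by the labels as 32% in both parental libraries, 33% in both WT dox- libraries, 12% and 14% in WT dox+, 28% in S34F dox- and 62% and 65% in S34F dox+. No source says that replicates were separate cultures, so p-values measure only the spread between these libraries, which may be technical.

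lincRNAs are transcribed by RNA polymerase II, capped, mostly spliced and polyadenylated like mRNAs, and are retained in the nucleus more often. U2AF1 is the small subunit of the U2 auxiliary factor and recognizes the AG dinucleotide at the end of introns, and codon 34 lies in its first zinc finger, which contacts the RNA. Spliced lincRNAs therefore have the same 3′ splice sites for U2AF1 to read as mRNAs do, while small structured RNAs that older annotations also typed as lincRNA have none.

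U2AF1 itself was at 278 and 299 FPKM in WT dox+, while S34F dox+ had 164 and 223, against 103 to 115 in the other 5 libraries. The epithelial genes KRT8 (1569 to 2410 FPKM) and EPCAM (407 to 545 FPKM) and the lung lineage factor NKX2-1 (49.05 to 67.8 FPKM) were present in every library, whereas the surfactant gene SFTPB was between 0.25 and 2.05 FPKM. The table holds no counts, and sequencing depth, estimated against parental replicate 1 from the commonest ratio of low values, ran from 0.604 in S34F dox+ replicate 2 to 1.25 in WT dox- replicate 2. Genes at 1 FPKM or above numbered 15736 to 20896 in the 4 dox+ libraries and 13661 to 14688 in the other 5, and S34F dox+ replicate 2 and WT dox+ replicate 2 had the most, 20896 and 17716. The median FPKM of the 94 members lay between 11.235 and 13.7 in the 4 dox+ libraries and between 8.76 and 9.965 in the other 5. The part that these library differences had in the results with doxycycline was not tested.

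The class was mixed, and its highest values came from small RNAs. RefSeq matched 69 members, of which 49 were long noncoding RNAs, 11 small structured RNAs, 6 protein-coding and 3 transcribed pseudogenes, and 25 had no match. RMRP (ENSG00000269900.2), the RNA of the RNase MRP complex that processes ribosomal RNA precursors, had a mean of 17600.5 FPKM and made up 50.9% of the members' summed FPKM, and the 11 small RNAs together made up 90.9%. RMRP varied little, from 15681 FPKM in WT dox- replicate 1 to 19620 in parental replicate 2, and at 17822 and 17942 FPKM in S34F dox+ against 16374 and 16703 in WT dox+ it did not pass the test (adjusted p = 0.897). FPKM of genes shorter than a sequenced fragment depends strongly on the estimated effective length, so these levels are not comparable with those of long transcripts.

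**Figure D1:**
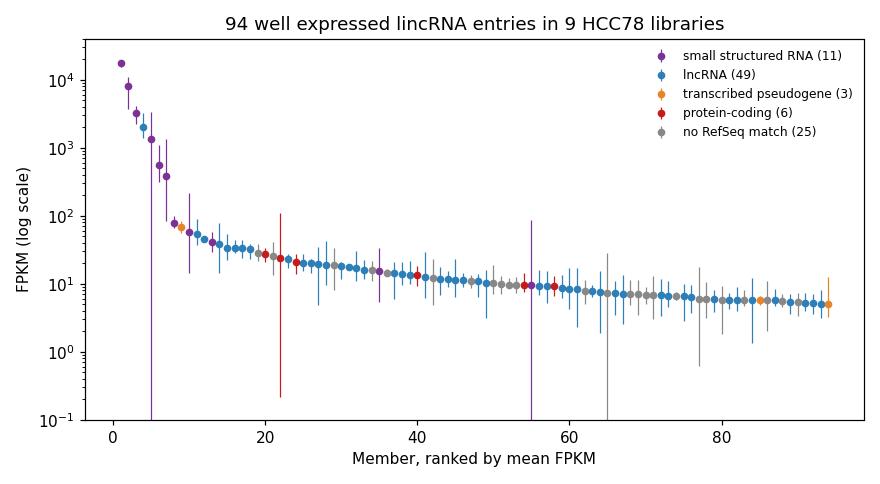
FPKM (log axis) of the 94 members, ranked by mean FPKM over 9 libraries and coloured by RefSeq class. Points are means and bars run from the lowest to the highest library, and bars that reach the lower edge stand for libraries at 0 or under 0.1 FPKM. The 7 members at a mean of 100 FPKM or more are small RNAs, save SNORA76.

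Several small RNA entries were uneven. SNORA76 is now listed as SNHG25, a snoRNA host gene, and ran from 1409 to 3232 FPKM. RNU11, the U11 RNA of the minor spliceosome, was listed at 0 in parental replicate 2 and WT dox- replicate 1 and at 939 to 3335 FPKM in the other 7 libraries. SNORA71B, an H/ACA snoRNA, was at 86.6 FPKM in S34F dox+ replicate 1 and listed at 0 in the other 8, so 1 library alone put it among the members. TERC, the template RNA of telomerase, was between 29 and 57.9 FPKM, and SCARNA2, which guides modification of RNAs in Cajal bodies, between 67.3 and 101 FPKM.

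U3 small nucleolar RNA, needed for the first cuts of the ribosomal RNA precursor, had 5 entries (SNORD3A, SNORD3B-1, SNORD3B-2, SNORD3C and SNORD3D). These copies are near-identical and share reads, so their individual values are uncertain. SNORD3B-1 was at 1364 FPKM in WT dox- replicate 2 and 1210 in S34F dox+ replicate 2 and between 84.5 and 262 in the other 7 libraries, and its large values fell in single libraries of a group. Summed over the 5 entries, U3 was at 9084 and 11088 FPKM in the parental line, 11848 and 11472 in WT dox-, 11592 and 14882 in WT dox+, 6376 in S34F dox- and 15271 and 14145 in S34F dox+. The sum was lowest in the single S34F dox- library, and WT dox+ replicate 1 lay between the WT dox- libraries.

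Members with known roles differed in how even they were. EPB41L4A-AS1 ran from 1.90 to 15.6 FPKM, TP53TG1 from 6.49 to 23.0 and FTX from 3.33 to 11.8, while others varied less. NORAD (LINC00657 in the table), which sequesters Pumilio proteins and protects genome stability, lay between 42.55 and 49.6 FPKM in all 9 libraries. CYTOR (LINC00152) was between 17.1 and 27.6 FPKM, CRNDE between 22.9 and 38.85 and LINC00511 between 11.7 and 22.6, and these 3 are known from their raised levels in several cancers. JPX, which promotes XIST expression, was between 11.8 and 21.2 FPKM. LINC00116 and LINC00493 encode the mitochondrial microproteins mitoregulin (MTLN) and SMIM26, and ran from 13.7 to 27.2 and from 20.7 to 33.6 FPKM. NORAD, CYTOR, CRNDE, LINC00511, JPX, LINC00116 and LINC00493 did not pass the test in any of the comparisons below. Of lists of known lincRNAs written with earlier results in view, the members held 4 of 26 cancer-associated genes listed in the table, 5 of 12 broadly expressed ones, 2 of 17 miRNA hosts, 2 of 8 imprinted or X-linked dosage genes, 2 of 5 p53 or genome stability genes, 2 of 8 RNAs of housekeeping enzymes and 3 of 7 with a known small or zinc finger protein. Of these, ZNF888 and FTX were the ones called in any comparison. Over the 91 members above 0 in every library, the highest library was a median of 2.21 times the lowest, and it was at least 5 times the lowest in 13.

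Differences were tested with limma on log2(FPKM + 1) over the 15179 genes that averaged 1 FPKM or more, which all 94 members did, in one fit of the 5 groups, and a gene was called at an adjusted p under 0.05. Fold changes on this scale understate those of low genes. In bulk RNA, fewer expressing cells and less RNA per cell cannot be told apart.

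S34F dox+ was compared with WT dox+ to ask which members differed with the induced allele. One member, ZNF888 (ENSG00000213793.3), was called, higher in S34F dox+, and no member was called lower, with 0.0527% of all genes called in either direction. ZNF888 is a KRAB zinc finger gene that RefSeq lists as protein-coding, and KRAB zinc finger proteins mostly repress transcription of the elements they bind. Its FPKM was 111 and 98.4 in S34F dox+, 0.23 and 1.96 in WT dox+, 0.29 in S34F dox-, 0.75 and 0.39 in WT dox- and 1.94 and 0.22 in the parental line. Both S34F dox+ libraries thus stood far above the other 7, which included the same line without doxycycline. TPM gave the same picture, with 89.5 and 84.75 in S34F dox+ and at most 1.72 elsewhere. The mean was 104.5 ± 8.59 FPKM (SD, n = 2) in S34F dox+ and 1.09 ± 1.22 FPKM (SD, n = 2) in WT dox+.

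The difference for ZNF888 was 5.79 on the log2(FPKM + 1) scale (standard error 0.51, adjusted p = 0.0122, limma). The rule's threshold of 5 FPKM was itself reached only through the S34F dox+ libraries, so that its presence among the members and this contrast are not independent, and the values are best read as a description. The direction held in all 16 alternatives and the call in 7. It was lost when replicate 1 or 2 of WT dox- was left out (adjusted p = 0.0694 and 0.0619), replicate 1 of WT dox+ (0.0641), or replicate 1 or 2 of S34F dox+ (0.12 and 0.142), and when both dox+ replicates 2 were left out together (0.236). It was also lost with a pseudocount of 0.1 (0.238), without a minimum FPKM (0.147) and with a replicate block (0.0549).

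**Figure D2:**
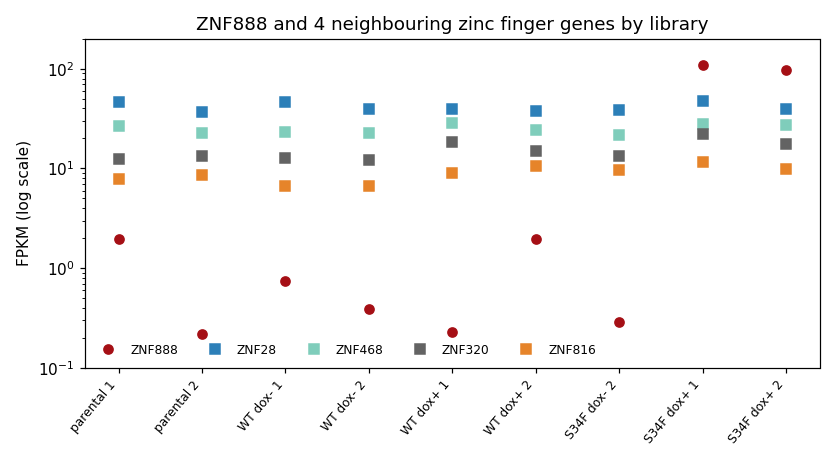
FPKM (log axis) of ZNF888 and of 4 zinc finger genes near it in RefSeq order, in each of the 9 libraries. ZNF888 is at 98.4 and 111 FPKM in S34F dox+ and at most 1.96 in the others, while the 4 neighbours stay within 6.65 to 47.8 FPKM.

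Its neighbours in RefSeq order did not share this pattern. ZNF320, the gene next to it, was at 22.0 and 17.6 FPKM in S34F dox+ and at 18.3 and 14.9 in WT dox+. ZNF816 was between 6.65 and 11.5 FPKM in all libraries, ZNF468 between 21.4 and 28.8 and ZNF28 between 36.6 and 47.8. The entry ZNF816-ZNF321P, on the other side of ZNF888 from ZNF320, was at 2.36 and 0 FPKM in S34F dox+. It was at 5.73 and 3.31 FPKM in WT dox+ and between 1.48 and 8.03 in the other groups. Zinc finger genes of this cluster are similar in sequence and can share reads, so the division of reads between ZNF888 and its paralogs is uncertain. The members whose log2(FPKM + 1) was most like that of ZNF888 over the 9 libraries were LINC01001 (Pearson's r = 0.88), LINC00511 (r = 0.86) and RP11-49C24.1 (r = 0.82), a description that rests on the 2 high S34F dox+ libraries. LINC01001 was at 7.58 and 8.10 FPKM in S34F dox+ and between 3.15 and 5.94 in the others. Like ZNF888, LINC01001 and RP11-49C24.1 reached a mean of 5 FPKM only through S34F dox+.

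Apart from ZNF888, members differed between S34F dox+ and WT dox+ by no more than the test could call. The median difference over the 94 members was 0.14 on the log2(FPKM + 1) scale, beside 0.03 over all genes tested. It was 0.04 without S34F dox+ replicate 2, 0.27 without S34F dox+ replicate 1, and in TPM 0.04 beside -0.07 over all genes. An unadjusted p below 0.05 was found for 6 members up and 1 down (6.38% and 1.06%), beside 4.01% and 2.77% of all genes. U47924.27, the host transcript of the miR-200c and miR-141 hairpins (MIR200CHG), was at 11.75 and 13.4 FPKM in S34F dox+ and at 4.34 and 4.63 in WT dox+. These groups did not overlap, with a difference of 1.31 (standard error 0.39, adjusted p = 0.583), yet WT dox- had 3.11 and 9.48 and the parental line 6.25 and 8.66. RP5-1061H20.4 (RAB4A-AS1) was at 16.8 and 29.7 FPKM against 7.40 and 10.4 (adjusted p = 0.619), and RP11-14N7.2 at 12.2 and 9.75 against 8.81 and 1.33 (adjusted p = 0.747). RP11-14N7.2 reached a mean of 5 FPKM only through S34F dox+. RNU11 was at 3335 and 2516 FPKM in S34F dox+ against 939 and 1891 in WT dox+, with a standard error of 3.75 from the libraries listed at 0.

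TP53TG1, a transcript first described as a p53 target, lay lower in S34F dox+ with 11.2 and 9.24 FPKM against 23.0 and 14.75 in WT dox+. Its difference was -0.80 (standard error 0.22, adjusted p = 0.546). The same order was seen without doxycycline, where S34F dox- had 6.49 FPKM and WT dox- had 9.63 and 8.46. RP11-530C5.1 (PPP1R12A-AS2) was at 8.63 and 12.4 FPKM against 15.6 and 20.9, LINC00116 at 13.7 and 20.94 against 20.98 and 23.7, AC084018.1 at 9.17 and 5.90 against 9.60 and 10.1, and CTD-2066L21.3 at 7.59 in both replicates against 11.4 and 8.70. None of these 4 passed the test, and adjusted p-values lay between 0.78 and 0.819.

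The miRNA hosts U47924.27, RP6-99M1.2 and MIR22HG are given with mature miRNAs they contain. The seed (bases 2 to 8, in capitals) sets which targets a miRNA pairs with. The miRNAs of the host members MIR4435-1HG, FTX and LINC00969 are not shown. The sequences are from RefSeq (GRCh38.p14). U47924.27 hosts hsa-miR-200c-3p (chr12:6963742-6963764, plus strand) and hsa-miR-141-3p (chr12:6964155-6964176, plus strand), best known for keeping epithelial cells epithelial through ZEB1 and ZEB2, and their seeds are close but not the same. RP6-99M1.2 (MIR222HG) hosts hsa-miR-221-3p (chrX:45746180-45746202, minus strand) and hsa-miR-222-3p (chrX:45747036-45747056, minus strand), which share 1 seed, and MIR22HG hosts hsa-miR-22-3p (chr17:1713914-1713935, minus strand).
hsa-miR-200c-3p: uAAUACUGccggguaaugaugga
hsa-miR-141-3p: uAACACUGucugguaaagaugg
hsa-miR-221-3p: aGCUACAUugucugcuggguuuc
hsa-miR-222-3p: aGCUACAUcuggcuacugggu
hsa-miR-22-3p: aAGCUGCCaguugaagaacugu

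The table's own entries for the hairpins MIR200C, MIR141, MIR221 and MIR222 were listed at 0 in every library, and total RNA libraries of this kind do not measure mature miRNAs. The hosts are therefore the only readout of these loci here. RP6-99M1.2 was at 17.5 and 11.5 FPKM in WT dox+, 12.9 and 17.5 in S34F dox+, 6.86 and 11.5 in WT dox-, 9.16 in S34F dox- and 7.90 and 11.2 in the parental line, with WT dox+ and WT dox- nearly equal in replicate 2. MIR22HG was at 3.89 and 5 FPKM in WT dox+ against 6.70 and 7.14 in WT dox- (difference -0.55, adjusted p = 0.484), and at 4.98 and 8.24 in S34F dox+ against 9.58 in S34F dox-. MIR4435-1HG was the most even host, between 28.9 and 43.9 FPKM.

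Doxycycline itself was compared within the WT line, where it induces tagged wild-type U2AF1 and lowers the share of S34F. One member was called, AC159540.1 (ENSG00000230606.6), a long noncoding RNA now named APPAT, with 0.0132% of all genes called. It was at 56.3 and 59.6 FPKM in WT dox+ and at 18.0 and 15.9 in WT dox-, a difference of 1.72 on the log2 scale (standard error 0.16, adjusted p = 0.0465). LINC00342 (ENSG00000232931.1) was at 35.2 and 28.0 FPKM against 7.51 and 9.59, with a similar difference of 1.77 (standard error 0.19) and an adjusted p of 0.0506. AC159540.1 kept its direction but not its call when any 1 of the 8 libraries of the groups with 2 was left out: for replicates 1 and 2 in turn the adjusted p was 0.189 and 0.107 in WT dox-, 0.113 and 0.28 in WT dox+, 0.0787 and 0.0612 in S34F dox+ and 0.0678 and 0.0752 in the parental line.

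Over the 94 members the median WT response was 0.14 on the log2 scale, beside 0.05 over all genes tested. It was 0.03 beside -0.06 with median-ratio scaling and 0.05 beside -0.03 with quantile normalization. With an unadjusted p below 0.05 there were 21 members up (22.3%) and 0 down, beside 8.8% and 5.59% of all genes. Among those averaging 5 FPKM or more, 20% of antisense genes were up and 3.33% down, with a median response of 0.17. Of such pseudogenes, 17.9% were up and 4.70% down, with a median of 0.12. RP11-553L6.5 (6.62 and 7.79 FPKM against 2.39 and 2.02), RP11-222A11.1 (30.3 and 23.5 against 11.8 and 10.3) and RP4-669L17.10 (16.4 and 23.15 against 5.36 and 11.35) did not overlap between the groups and had adjusted p-values from 0.126 to 0.279. Lower without overlap were SNORD3B-1, EPB41L4A-AS1 (4.53 and 1.90 against 5.01 and 9.17), MIR22HG, RSBN1L-AS1 (4 and 5.28 against 6.18 and 7.79) and RP11-304L19.5, now SNHG19 (13.17 and 9.77 against 13.19 and 15.04). Their adjusted p-values were between 0.404 and 0.655.

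The doxycycline response averaged over the WT and S34F lines asks what both induced cDNAs, or doxycycline itself, had in common. It called 14 members higher and 0 lower, with 32 up and 1 down (34.04% and 1.06%) at an unadjusted p below 0.05, beside 15.9% and 9.22% of all genes. That is 14.9% of the members higher. Of these 14, 2 would fall under 5 FPKM without their highest group, and 12 would not. For these 2, membership and call are not independent, so the share of 14.9% partly reflects the selection. Of all genes, 2.79% were called higher, 1.09% lower and 3.88% in either direction. Of genes averaging 5 FPKM or more, 2.98% were called higher. Of antisense genes and pseudogenes averaging 5 FPKM or more, 9.17% and 10.7% were called higher. The members' median response was 0.24 on the log2 scale, beside 0.08 over all genes tested, -0.02 over protein-coding genes and 0.14 over both antisense genes and pseudogenes, all averaging 5 FPKM or more. The 4 dox+ libraries lay above the 3 dox- libraries of the transduced lines in 23 of the 94 members, beside 15.2% of all genes, and below them in 2, beside 9.76% of all genes.

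The called members were 8 long noncoding RNAs of RefSeq, 4 entries without a RefSeq match, SNORD3A and ZNF888. ZNF888 was called through 1 line, since its response was 6.35 on the log2 scale in the S34F line and 0.29 in the WT line, where the WT dox+ libraries straddled those of WT dox-. The other 13 were higher in all 4 dox+ libraries than in the 3 dox- libraries, and 11 of these also lay above both parental libraries. As the 13 were called on these same libraries, their separation is a description and not further evidence. Its S34F side rests on 1 S34F dox- library, which had the fewest genes at 1 FPKM or above (13661). The number of calls depended on the libraries kept. Leaving out replicate 1 or replicate 2 of WT dox- gave 2 and 7 calls, of WT dox+ 4 and 2, of S34F dox+ 11 and 6, and of the parental line 7 and 7. It was 0 when both dox+ replicates 2 were left out together, where 3 of all genes were still called.

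**Figure D3:**
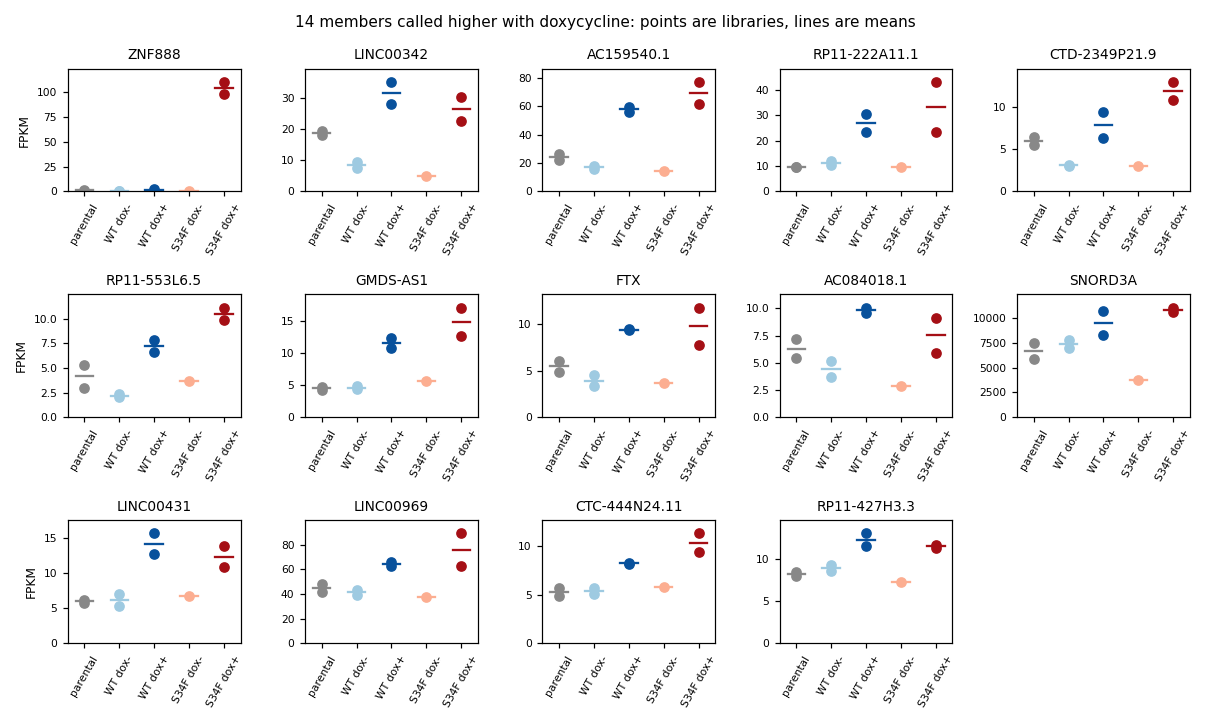
FPKM of the 14 members called higher with doxycycline, 1 panel each with its own axis from 0, by group. Points are libraries and lines are group means; 13 members are higher in every dox+ library than in every dox- library, and ZNF888 is high in S34F dox+ alone.

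Among the called members other than ZNF888, AC159540.1 and LINC00342 had the largest responses. RNU11, not called, had a response of 3.3 (adjusted p = 0.516), with WT dox- replicate 1 listed at 0. AC159540.1 was at 61.5 and 77.4 FPKM in S34F dox+ against 14.3 in S34F dox-, so its response was 2.20 in the S34F line and 1.72 in the WT line, and 1.96 over both (standard error 0.12, adjusted p = 0.00161). Both parental libraries, at 26.6 and 22.0 FPKM, lay between the dox- and dox+ libraries. LINC00342 was at 22.6 and 30.2 FPKM in S34F dox+ against 4.96 in S34F dox-, with a response of 1.98 over both lines (standard error 0.15, adjusted p = 0.00422). Its parental libraries, at 19.3 and 18.05 FPKM, also lay above all 3 dox- libraries. These 2 members stayed called in 15 of 16 alternatives. The call held in 13 for CTD-2349P21.9, 12 for GMDS-AS1, 11 for ZNF888, 9 for RP11-553L6.5 and SNORD3A, 8 for RP11-222A11.1 and FTX, 6 for LINC00969, 5 for LINC00431 and 3 for AC084018.1.

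RP11-222A11.1 (ENSG00000228065.6, LINC01515) was at 23.3 and 43.15 FPKM in S34F dox+ against 9.80 in S34F dox-, and its parental libraries, at 9.78 and 9.49, lay with the dox- libraries. Its response was 1.40 over both lines (standard error 0.21, adjusted p = 0.0231). GMDS-AS1 (ENSG00000250903.4, now GMDS-DT) was at 10.8 and 12.3 FPKM in WT dox+ and, for S34F dox+, 12.7 and 17.1, against 4.45 and 4.82 in WT dox- and 5.65 in S34F dox-. Its parental libraries were at 4.67 and 4.33 FPKM, and its response was 1.2 (standard error 0.14, adjusted p = 0.0142). FTX (ENSG00000230590.3), a transcript of the X-inactivation center and host of several miRNAs, was at 9.48 and 9.35 FPKM in WT dox+, with 7.78 and 11.8 in S34F dox+, against 3.33 and 4.52 in WT dox- and 3.67 in S34F dox-. Its response was 1.14 (standard error 0.18, adjusted p = 0.0276), whereas JPX from the same center was at 20.3 and 21.2 FPKM in WT dox+ and 17.8 and 16.4 in WT dox-.

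CTD-2349P21.9 was at 6.41 and 9.43 FPKM in WT dox+, with 10.9 and 13.04 in S34F dox+, against 3.08 and 3.18 in WT dox- and 3.03 in S34F dox-, with a response of 1.38 (adjusted p = 0.0142). Its parental libraries, at 6.51 and 5.5 FPKM, lay above all 3 dox- libraries and 1 was above a WT dox+ library. RP11-553L6.5 was at 9.86 and 11.1 FPKM in S34F dox+ against 3.66 in S34F dox- (response 1.33, adjusted p = 0.0211), and like ZNF888 it would fall under 5 FPKM without its highest group. The remaining calls were smaller. LINC00431 rose by 0.94, from 7.02, 5.24 and 6.66 FPKM in the dox- libraries to between 10.8 and 15.6 FPKM in the dox+ libraries (adjusted p = 0.03). LINC00969, which RefSeq lists as the host of miR-570, rose by 0.80, from 39.05, 43.5 and 37.6 FPKM to between 62.7 and 89.3 FPKM (adjusted p = 0.0339).

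AC084018.1 (LINC01089) rose by 1.06, with 9.60 and 10.1 FPKM in WT dox+, with 9.17 and 5.90 in S34F dox+ against 3.70, 5.13 and 2.87 in the dox- libraries (adjusted p = 0.0375). Its parental libraries, at 7.18 and 5.45 FPKM, overlapped the dox+ range. SNORD3A rose by 0.94 (adjusted p = 0.0193), but its response was 1.53 in the S34F line, where the dox- library was at 3752 FPKM, and 0.35 in the WT line, where WT dox- had 7823 and 6970 and WT dox+ had 8239 and 10717. CTC-444N24.11 (response 0.63, adjusted p = 0.0483) and RP11-427H3.3 (response 0.51, adjusted p = 0.0499) lay at the threshold and were each called in 1 of 16 alternatives. No member was called lower, and those with the largest decreases shared by both lines were EPB41L4A-AS1 (-0.85), MIR22HG (-0.53), RP11-96H19.1 (-0.51), RP11-304L19.5 (-0.48) and SNORD3D (-0.42), with adjusted p-values between 0.216 and 0.572.

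**Figure D4:**
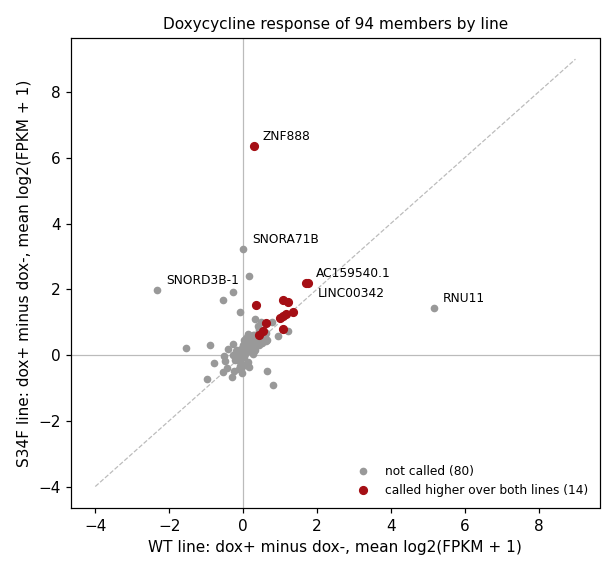
Mean doxycycline response of each of the 94 members in the WT line (horizontal axis) and in the S34F line (vertical axis), as differences in log2(FPKM + 1), with the 14 called members in red and the dashed line marking equal responses. Most members lie near the origin, 13 called members lie above 0 on both axes, and ZNF888 stands at 6.35 in the S34F line and 0.29 in the WT line.

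Promoters of 3 called members are shown to set side by side the starts of genes that rose together. RefSeq (GRCh38.p14) held the window from 250 bases before to 50 bases after the start for 5 of the 10 called members it matched, and for 45 members in all. The windows of AC159540.1 (chr2:97423978-97424277, minus strand), GMDS-AS1 (chr6:2245503-2245802, plus strand) and AC084018.1 (chr12:121802897-121803196, minus strand) had a GC content of 46.0%, 78.3% and 61.0%. Capitals mark matches on either strand to the CCAAT motif of NF-Y, the GGGCGG motif of Sp1, the TATAAA motif of the TATA-binding protein or the TGATGNAA motif of ATF4 dimers, and no marked matches overlap.
AC159540.1: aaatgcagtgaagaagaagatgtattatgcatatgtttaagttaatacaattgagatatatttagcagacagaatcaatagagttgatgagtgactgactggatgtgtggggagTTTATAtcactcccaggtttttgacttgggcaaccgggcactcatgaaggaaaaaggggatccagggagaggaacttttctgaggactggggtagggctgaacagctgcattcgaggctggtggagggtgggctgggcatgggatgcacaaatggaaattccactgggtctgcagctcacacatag
GMDS-AS1: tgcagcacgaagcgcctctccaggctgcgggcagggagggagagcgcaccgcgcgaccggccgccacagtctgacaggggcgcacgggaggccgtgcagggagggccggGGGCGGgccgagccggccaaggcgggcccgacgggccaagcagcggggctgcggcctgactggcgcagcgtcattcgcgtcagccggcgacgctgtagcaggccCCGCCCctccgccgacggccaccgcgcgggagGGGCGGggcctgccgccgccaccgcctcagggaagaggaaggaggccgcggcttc
AC084018.1: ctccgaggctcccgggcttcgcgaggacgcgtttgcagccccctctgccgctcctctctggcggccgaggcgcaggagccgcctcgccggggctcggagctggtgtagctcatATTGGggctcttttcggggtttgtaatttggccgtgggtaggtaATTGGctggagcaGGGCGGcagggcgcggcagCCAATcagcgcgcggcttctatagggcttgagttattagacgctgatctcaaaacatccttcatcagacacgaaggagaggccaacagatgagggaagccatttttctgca

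No searched motif was in all 3 windows. AC159540.1 held 1 TATAAA match, GMDS-AS1 3 GGGCGG matches, and AC084018.1 3 CCAAT matches and 1 GGGCGG match, while the windows of RP11-222A11.1 and FTX held none of the 4 motifs. Among all 27305 promoters of this length, 35.7% held CCAAT, 44.6% GGGCGG, 12.0% TATAAA and 3.67% TGATGNAA. Of the 45 members with a window, 19 held CCAAT, 25 GGGCGG, 3 TATAAA and 1 TGATGNAA. A match is only a run of letters, and no binding was measured.

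The S34F line was compared with the WT line over both doxycycline states. No member was called, and 0.119% of all genes were, while 6 members lay higher and 4 lay lower with an unadjusted p below 0.05 (6.38% and 4.26%), beside 3.39% and 2.58% of all genes. Of pseudogenes averaging 5 FPKM or more, 6.27% lay higher and 3.45% lower, and of such antisense genes 4.17% each way. ZNF888 had the smallest adjusted p (difference 2.76, adjusted p = 0.113), from a difference of 5.79 with doxycycline and of -0.27 without. Next was RP11-49C24.1, at 6.32 FPKM in S34F dox- and 8.79 and 10.8 in S34F dox+ against 3.22 and 3.18 in WT dox- and 5.28 and 5.49 in WT dox+ (difference 0.78, adjusted p = 0.237). RP5-1061H20.4 was higher (1.02) and RP11-96H19.1 (-1.07), TP53TG1 (-0.61), Z83851.3 (-0.55), RP11-677O4.6 (-0.53) and LINC00342 (-0.46) lower in the S34F line, with adjusted p-values between 0.675 and 0.978. Of the members named here, ZNF888 and RP11-49C24.1 reached a mean of 5 FPKM only through S34F dox+, so their differences are descriptions. Lines from separate subclones differ in more than the cDNA, and clone and allele cannot be told apart.

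The test of the difference between the responses of the lines called no member, and 0.0264% of all genes. At an unadjusted p under 0.05 there were 4 members with the larger response in the S34F line and 2 with the smaller (4.26% and 2.13%), beside 2.21% and 1.21% of all genes. These shares were 3.13% and 2.51% of pseudogenes and 3.33% and 1.67% of antisense genes averaging 5 FPKM or more. ZNF888 had the largest difference, 6.06 (standard error 0.80, adjusted p = 0.166), although its lines did not overlap in response. Among members whose responses did not overlap between the lines it was followed by SNORD3B-1 (4.29), RP11-57A19.5 (2.23), RP11-14N7.2 (2.19) and U47924.27 (2.18), and in the other direction by RP11-530C5.1 (-1.72) and CTD-2066L21.3 (-1.13), each with an adjusted p of 1.0. U47924.27 was at 2.58 FPKM in S34F dox- and 11.75 and 13.4 in S34F dox+, and at 3.11 and 9.48 in WT dox- and 4.34 and 4.63 in WT dox+. The single S34F dox- library stands behind every such difference, so its own spread is unknown. ZNF888, RP11-57A19.5 and RP11-14N7.2 also reached a mean of 5 FPKM only through S34F dox+.

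WT dox- against the parental line shows what the transduced, uninduced subclone differed in. No member was called, beside 0.0988% of all genes, with an unadjusted p below 0.05 for 1 member up and 9 down (1.06% and 9.57%), beside 5.79% and 6.54% of all genes. Among those averaging 5 FPKM or more, 4.17% of antisense genes were up and 10.8% down, and 3.13% of pseudogenes were up and 7.84% down. LINC00342 (7.51 and 9.59 FPKM against 19.3 and 18.05, difference -1.05, adjusted p = 0.131), RP11-3P17.5 (13.4 and 18.2 against 31.8 and 40.8, adjusted p = 0.161) and SNORD3D (47.96 and 14.95 against 110 and 215, adjusted p = 0.155) were lower without overlap. RP5-1159O4.1 (MIOS-DT) was at 15.7 and 12.6 FPKM against 3.11 and 5.71 in the parental line (difference 1.52, adjusted p = 0.303).

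Splicing of the members was read from deposited MISO comparisons of S34F with WT cells, given as percent spliced in (PSI, here a fraction from 0 to 1) with reads for each side and no replicates, so no test was made. The sides were taken from the order in which the comparison is named. Events at loci shared with another gene were left out, and 121 events of 32 members had at least 10 reads on each side, of which 79 were skipped exons, 17 alternative 5′ splice sites, 13 NAGNAG acceptors, 8 alternative 3′ splice sites and 4 retained introns. PSI was at least 0.10 apart in 42 events of 21 members, 34.7% of the members' events, beside 30.7% of all events of 1 gene. Member events had a median of 75 and 105 reads, fewer than the 296 and 429 of all events. Between 33 and 143 reads on the lower side, 31.7% of member events and 46.1% of all events were this far apart. Of the 42 events, 30 were lower in S34F (71.4%), where 48.1% of all such events were lower, and several of them share exons of 1 gene.

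**Figure D5:**
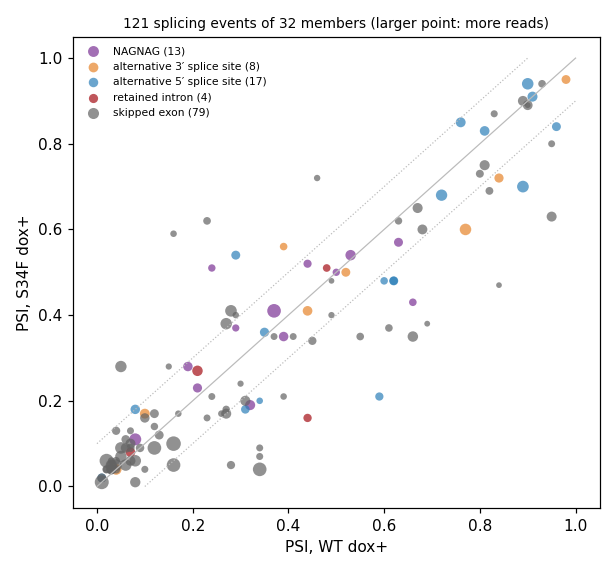
PSI in S34F dox+ (vertical axis) against PSI in WT dox+ (horizontal axis) for 121 events of 32 members, coloured by event type, with larger points for more reads. Dotted lines mark a difference of 0.10, beyond which 30 events lie below and 12 above.

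The best covered of the large differences was in TPTEP1, a transcribed pseudogene, where a skipped exon had a PSI of 0.04 in S34F from 1060 reads and 0.34 in WT from 1386 reads. A skipped exon of MIR22HG had a PSI of 0.35 from 200 reads against 0.66 from 177 reads. In TP53TG1 a retained intron had a PSI of 0.16 from 55 reads against 0.44 from 73, and a skipped exon 0.62 from 38 reads against 0.23 from 75, so 2 events of 1 gene lay in opposite directions. LINC01123 had a skipped exon at 0.28 from 293 reads against 0.05 from 346, and RSBN1L-AS1 (APTR) an alternative 5′ splice site at 0.54 from 77 reads against 0.29 from 166.

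Of the 14 members called with doxycycline, 4 had events listed, and each had at least 1 with a PSI 0.20 or more apart between the induced lines. Of all 32 members with events, 13 had such an event. This far apart were 15.7% of member events and 11.6% of all events. FTX had an alternative 5′ splice site with a PSI of 0.21 from 52 reads in S34F and of 0.59 from 57 reads in WT. LINC00969 had a skipped exon at 0.63 from 135 reads against 0.95 from 176, and GMDS-AS1 one at 0.47 from 10 reads against 0.84 from 33. LINC00342 had a NAGNAG acceptor, a pair of AG dinucleotides close enough for either to end the intron, at 0.43 from 36 reads against 0.66 from 58. The levels of these 4 differed little between S34F dox+ and WT dox+, with mean differences from -0.25 to 0.33 on the log2 scale. Reads this few leave wide uncertainty in PSI. The best covered event of each of these genes was closer between S34F and WT. PSI was 0.10 from 1843 reads against 0.16 from 3761 for LINC00342. It was equal on both sides for LINC00969 (0.01, 1308 and 1671 reads), FTX (0.04, 239 and 219) and GMDS-AS1 (0.50, 31 and 50). ZNF888 had no event listed.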

How the data were processed

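RNA-Seq of 9 HCC78 libraries was analysed; the iCLIP samples were not used here. The authors made libraries from total RNA with a stranded kit, trimmed the paired reads to 100 bases, aligned them with STAR 2.3.0 and estimated expression with RSEM 1.2.29, per the labels on GRCh37/hg19. The authors deposited FPKM and TPM per gene and library, and no gene counts, so no counting error could be given. MISO results were deposited by the authors as PSI, a fraction, with read counts for each side. How replicates were combined there is not given in the sources used here. The deposited columns of PSI differences and Bayes factors hold the authors' own comparisons and were not used.

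Genes averaging 1 FPKM or more were tested on log2(FPKM + 1), a pseudocount of 1, with limma 3.58.1 (trend) in R 4.3.3, in one fit of 5 groups, two-sided, with Benjamini-Hochberg adjustment over 15179 genes. The fit was run on simulated data with planted doxycycline effects and independent noise. These data held no depth or replicate differences, so the run does not check the calls made here. Members were named where called, where among up to 5 per direction with the largest difference and no overlap between groups (averaged comparisons: the same sign in both parts), where among the 10 highest, where near the threshold, where most like ZNF888 or where in lists of known lincRNAs. Splicing events and the entries under other observations were chosen after their values were seen. The members and lists were chosen with earlier results of these data known. Gene names were matched to RefSeq (GRCh38.p14) for 69 of 94 members, and no coordinates were carried between builds. Alternatives were a pseudocount of 0.1, no minimum, TPM, median-ratio scaling, quantile normalization, a replicate block, members by median, no trend and each replicate left out. Leaving out both dox+ replicates 2 was chosen after seeing the data. Libraries were not paired by replicate number, as correlations of replicate differences between groups were -0.08 to 0.04. These correlations cannot show that replicates of 1 number shared no batch.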

Additional observations from a re-analysis of the deposited data

How the results depend on the processing

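Direction was followed for members called in a comparison or among its up to 5 largest differences per direction. None of these changed direction there in the 16 alternatives that refit the values. Members named for other reasons were not followed. The number of members called, 1 in S34F dox+ against WT dox+, was 0 with a pseudocount of 0.1, without a minimum FPKM, with a replicate block, by a median of at least 5 FPKM (which leaves out ZNF888) and without both dox+ replicates 2, and 0 to 1 with 1 replicate left out. In WT dox+ against WT dox- it was 1, and 2 with a pseudocount of 0.1, but 0 without a minimum, with TPM, with median-ratio scaling, with quantile normalization, with a replicate block, without trend, without both dox+ replicates 2 and with any replicate left out. The doxycycline response called 14 members, 15 with a pseudocount of 0.1, 12 with TPM or median-ratio scaling, 11 with a replicate block, 10 with quantile normalization or without trend, 13 by median, 4 without a minimum FPKM, where all 4 were among the 14, 0 without both dox+ replicates 2, and 2 to 11 with 1 replicate left out. Fewer libraries also leave fewer residual degrees of freedom, and an arm left with 1 library is assumed to vary like the others. The S34F line against the WT line and the difference of the responses called 0 to 1 with 1 replicate left out and 0 otherwise, and WT dox- against parental called 0 throughout. Median-ratio scaling moved the median response of all genes from 0.08 to -0.10 and that of the members from 0.24 to 0.06 on the log2 scale. Gene by gene, replicate differences were not correlated between groups, and the block is given as an alternative only. Both dox+ replicates 2 nevertheless had more genes at 1 FPKM or above than their replicates 1 (20896 against 15736 in S34F dox+, 17716 against 16053 in WT dox+). A shared batch was not tested. The number of member events apart was 42, 34 with at least 20 reads, and 19 at a PSI difference of 0.20. S34F dox-, with 1 library, was not left out.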

Other observations

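CTC-246B18.10, an entry without a RefSeq match, was at 28.5 FPKM in parental replicate 1, 27.5 in S34F dox+ replicate 2, 7.38 in WT dox- replicate 2 and 3.59 in S34F dox-, and was listed at 0 in the other 5 libraries. RP11-57A19.5 ran from 0.62 FPKM in S34F dox- to 17.7 in S34F dox+ replicate 2, with 2.94 in S34F dox+ replicate 1. Z83851.3 (OGFRP1) was at 12.8 FPKM in WT dox- replicate 1 and between 3.27 and 5.78 in the other 8 libraries. In each of these entries, libraries of 1 group lay on both sides of those of other groups.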
